A study of Mus musculus with 12 samples.

Results

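Open, compact, acetylated sites that lack H3K4me3 were examined in C57BL/6 mice at embryonic day 14.5. Such a site is a stretch of accessible chromatin in proerythroblasts, which are early red cell precursors, that overlapped H3K27ac in whole fetal liver, did not overlap H3K4me3 there, and lay in no H3K27ac region of 8 kb or wider. Of 16271 accessible sites seen in both proerythroblast libraries, 1626 (9.99%) met this rule. Accessible chromatin was read by ATAC-seq, in which a transposase cuts open DNA, in 2 libraries. Histone marks were read by ChIP-seq of whole fetal liver, with 2 libraries of H3K27ac, 3 of H3K4me1, 2 of H3K4me2 and 2 of H3K4me3. The embryos carried no transgene or treatment that the labels name, and the labels do not say whether libraries of 1 mark came from separate litters, so the spread between them may be technical.

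Enhancers are stretches of DNA, away from promoters, at which transcription factors bind and raise the transcription of genes that can lie far off. Their flanking nucleosomes typically carry H3K4me1 and H3K4me2, and H3K27ac where the enhancer is active, while H3K4me3 is the mark of active promoters. In red cell precursors such elements, many bound by GATA1 and TAL1, drive globin, heme and membrane genes. The whole liver of this stage holds red cell precursors of several stages beside hepatocytes and other cells, and the ATAC libraries come from proerythroblasts alone. How far a mark at these sites comes from proerythroblasts rather than from other liver cells cannot be told apart in these data.

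The sites were chosen by the peak calls of ATAC, H3K27ac and H3K4me3 and by the width of H3K27ac, so these are given below as a description. The classes of site compared below are all accessible, so ATAC strength did not divide them, whereas the open and closed H3K27ac regions compared further on are divided by ATAC. H3K4me1 and H3K4me2 did not enter the choice. Each value is a fold enrichment that the authors' peak caller gave for a peak, or a share of sites that meet a peak. Each mark has its own antibody, and its fold enrichments are set only against others of that mark. The peak lists held 18441 and 28980 ATAC peaks in replicates 1 and 2, and 14027 to 52387 peaks in the histone libraries. They hold no read counts, so the depth of each library is unknown. No gene annotation or genome of the files' build, mm9, was used here, and the sites are named by position.

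Nearly every site carried both H3K4me1 and H3K4me2. A consensus H3K4me1 region, meaning a merged stretch that holds a peak of all 3 libraries, met 1607 of the 1626 sites, or 98.8% (95% Clopper-Pearson interval 98.2 to 99.3, counting error only). Among all 16271 accessible sites 85.5% met one. Consensus H3K4me2 met 1604 sites, or 98.6% (98.0 to 99.2), against 95.6% of all accessible sites. Both marks together met 1594 sites, or 98.0%, against 85.0% of all accessible sites. Library by library, H3K4me1 peaks met 99.6%, 98.3% and 99.0% of the sites and H3K4me2 peaks met 98.7% and 98.9%. The share with consensus H3K4me1 depended on the authors' threshold. With −log10 q of at least 5 required of every peak, 1080 sites met the rule and 68.6% of them met consensus H3K4me1, while 98.0% still met H3K4me2. Shares of all accessible sites were not computed at that threshold, so these shares have no background beside them.

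H3K4me1 was more frequent at these sites than at open sites that carry H3K4me3 and H3K27ac together, which numbered 10097 and are called promoter-like here. The promoter-like class has no limit on H3K27ac width. Its H3K27ac regions had an upper quartile of 5803 bp and reached 74472 bp, against at most 7992 bp at the compact sites. H3K4me1 peaks met 99.6%, 98.3% and 99.0% of the compact sites in replicates 1, 2 and 3, against 92.0%, 71.0% and 87.3% of the promoter-like sites. Consensus H3K4me1 regions, which can be wider than the peaks of 1 library, lay closer, at 98.8% of the compact and 92.3% of the promoter-like sites. Library by library, the share met by a peak was higher at the compact sites in 3 of 3 libraries, by 15.5 points ± 10.4 (SD, n = 3). An exact two-sided sign-flip permutation test gave p = 0.25, the smallest that 3 libraries allow. Without H3K4me1 replicate 2, in which promoter-like sites were least often met, the difference was 9.62 points. The compact sites are narrower, with a median of 481 bp against 789 bp, and among sites of 400 to 600 bp the difference was 14.6 points. It was 35.9 points when cover was read at the ATAC summit, 37.3 points when at least 50% of the site had to lie under the peak, and 36.4 points with −log10 q of at least 5.

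The strength of H3K4me1 followed the same order. It was read only at sites with a peak of the library, which left out a larger share of promoter-like than of compact sites. The median fold enrichment was 3.82, 3.05 and 3.27 at the compact sites and 3.17, 2.70 and 2.82 at the promoter-like sites in replicates 1, 2 and 3. The difference was 0.485 ± 0.157 (SD, n = 3), higher in 3 of 3 libraries (exact sign-flip permutation p = 0.25). H3K4me2 ran the other way. Its median fold enrichment was 4.98 and 4.52 at the compact sites and 7.20 and 5.80 at the promoter-like sites, a difference of −1.75 ± 0.667 (SD, n = 2) that was lower in 2 of 2 libraries. The smallest p that 2 libraries allow is 0.5, and the exact test gave 0.5. H3K4me2 peaks met 98.8% ± 0.130 of the compact sites (SD, n = 2) and 99.99% of the promoter-like sites in each library.

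Open sites without H3K4me3 that lie inside H3K27ac regions of 8 kb or wider, 610 in number, are set apart in the rule by the width limit alone. H3K4me1 at the compact sites was weaker than there in 3 of 3 libraries, with a difference in median fold enrichment of −0.49 ± 0.107 (SD, n = 3) and medians of 3.82, 3.05 and 3.27 against 4.43, 3.44 and 3.74 (exact sign-flip permutation p = 0.25). H3K4me2 was weaker in 2 of 2 libraries, with medians of 4.98 and 4.52 against 5.56 and 5.21 (exact sign-flip permutation p = 0.5). The share of sites met by an H3K4me1 peak was 99.0% ± 0.648 at the compact sites, against 99.8% ± 0.164, and the difference of −0.88 points became −12.6 points with −log10 q of at least 5. ATAC signal had no settled direction, with a median fold enrichment of 5.50 and 7.71 at the compact sites against 5.83 and 7.29 at the sites in broad regions. The classes differed in other ways as well. Median H3K4me1 region width was 5550 bp at the compact sites against 14269 bp. As a description, since the rule used both marks, median H3K27ac fold enrichment was 3.43 and 3.18 against 4.77 and 4.24. An H3K4me3 peak of replicate 2 met 30.6% of the compact sites against 51.3%.

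**Figure D1:**
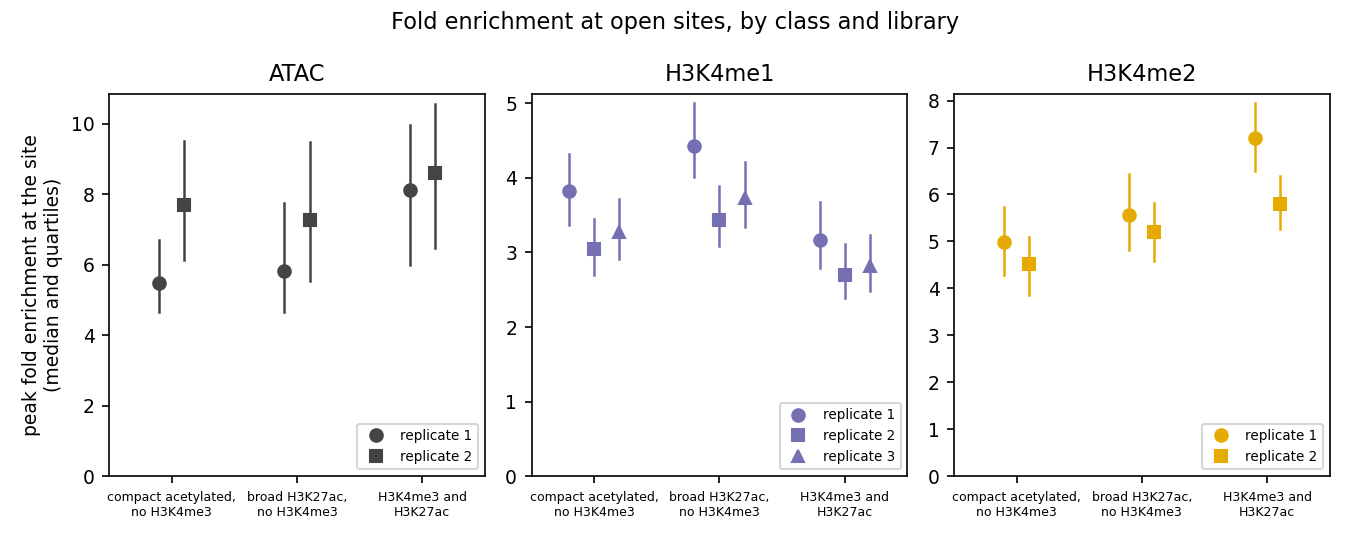
Fold enrichment of the strongest peak at each site (vertical axis, linear, from 0) for compact acetylated sites without H3K4me3, sites without H3K4me3 in broad H3K27ac regions and sites with H3K4me3 and H3K27ac. Points are medians of each library and lines run between the quartiles. H3K4me1 medians at the compact sites (3.82, 3.05 and 3.27) lie between those of the other classes in each library, and H3K4me2 medians (4.98 and 4.52) are the lowest.

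ATAC peaks at the compact sites were weaker than at promoter-like sites with all widths pooled, but not in both libraries at matched width. Their median fold enrichment was 5.50 in replicate 1 and 7.71 in replicate 2, against 8.12 and 8.60 at promoter-like sites, lower in 2 of 2 libraries, with a mean difference of −1.76 ± 1.22 (SD, n = 2; exact sign-flip permutation p = 0.5, the smallest possible). The 2 libraries placed the compact sites differently. Within its own list, the median peak at these sites stood at percentile 38.5 of fold enrichment in replicate 1 and at percentile 68.2 in replicate 2, which has more peaks. Promoter-like sites stood at 65.9 and 74.6. Among sites of 400 to 600 bp, 721 compact and 1825 promoter-like, the medians were 5.50 and 7.87 at the compact sites against 6.15 and 6.82 at the promoter-like sites. At matched width the libraries therefore disagreed in direction, and the mean difference was 0.20. H3K4me1 kept its order at matched width, with peaks at 99.4%, 97.9% and 99.0% of compact against 91.4%, 74.2% and 87.0% of promoter-like sites.

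Ranked by mean fold enrichment, the compact sites were fewer among the most accessible sites than their share of all sites. They made up 9.99% of the 16271 sites ranked by ATAC, 14.4% of the 11079 ranked by H3K4me1 and 10.3% of the 15537 ranked by H3K4me2, each ranking holding the sites that met a peak of every library of its kind. Promoter-like sites made up 62.1% of all 16271 and sites in broad H3K27ac regions 3.75%, shares not counted within the H3K4me1 and H3K4me2 rankings. Of the 1000 sites of highest ATAC fold enrichment 27 were compact sites, against 852 promoter-like ones. Of the 1000 sites of highest H3K4me1 fold enrichment 205 were compact sites, against 225 in broad H3K27ac regions and 563 promoter-like ones. Of the 1000 of highest H3K4me2 fold enrichment 6 were compact sites and 965 promoter-like ones.

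H3K4me1 cover at the compact sites was highest at the ATAC summit. A peak of this mark lay over 98.2% ± 1.03 of summits and over 81.7% ± 5.67 of points 1 kb away (SD, n = 3). Cover at 1 kb minus cover at the summit was −11.8, −21.1 and −16.8 points in replicates 1, 2 and 3. At promoter-like sites it was lower at the summit, at 62.3% ± 13.2, than at 1 kb, at 75.9% ± 7.43, and the same difference was 8.32, 19.7 and 12.6 points in replicates 1, 2 and 3. For H3K4me2 at compact sites, cover was 98.0% ± 0.0435 at the summit, 55.6% ± 11.3 at a distance of 1 kb and 21.2% ± 5.99 at 2 kb (SD, n = 2). At promoter-like sites, which have no limit on H3K27ac width, it was 85.8% ± 1.23 at 1 kb and 54.1% ± 2.64 at 2 kb. Both were above the compact sites in both libraries. For H3K27ac, whose width the rule limits, it was 91.7% ± 1.57 at the summit, 92.3% ± 1.19 at 0.25 kb and 31.7% ± 4.63 at 2 kb. H3K4me1 cover at 2 kb was 48.8% ± 7.04 at the compact sites, against 85.6% ± 4.93 at sites in broad regions.

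**Figure D2:**
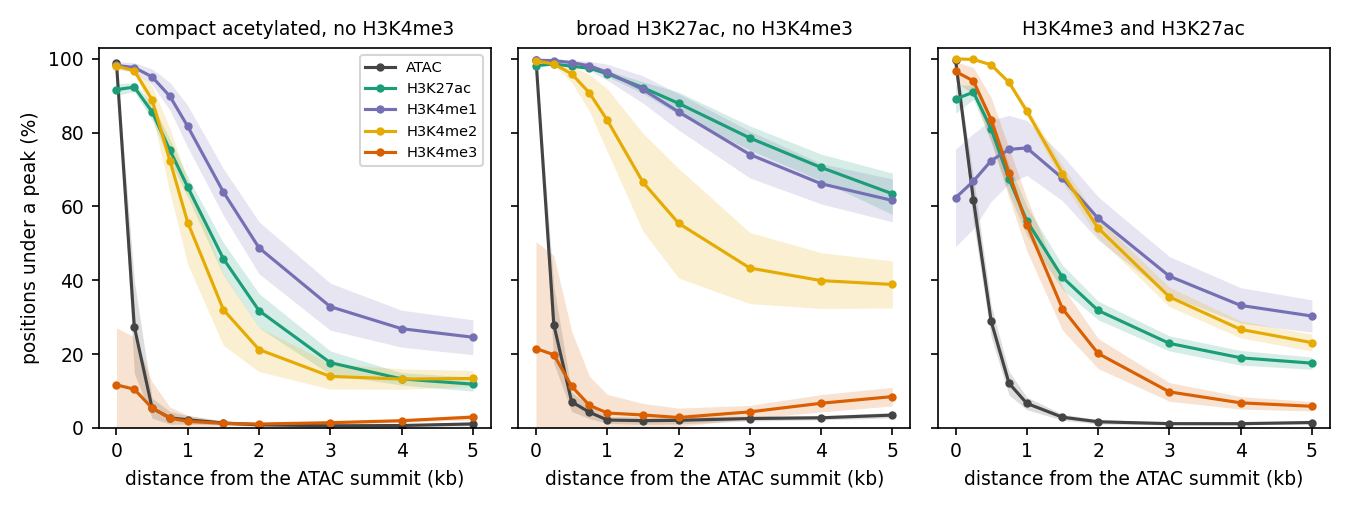
Share of positions under a peak (vertical axis, %) by distance from the ATAC summit (horizontal axis, kb) at the 3 classes of site. Lines are means over the libraries of a mark and bands the SD. At compact sites H3K4me1 covers 98.2% of summits and is 81.7% at 1 kb, while at sites with H3K4me3 and H3K27ac it is lower at the summit (62.3%) than at 1 kb (75.9%).

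The median widths of the regions rose from H3K4me2 to H3K27ac to H3K4me1, an order that not every site followed. Compact sites had a median width of 481 bp, with quartiles of 379 and 598 bp. The widest H3K4me2 region that overlapped a site had a median width of 2784 bp, the H3K27ac region 3467.5 bp and the H3K4me1 region 5550 bp. Among the 1594 sites with both methylation marks, the H3K4me1 region was wider than the H3K4me2 region at 1560 (97.9%) and held it whole at 1471 (92.3%). It was wider than the H3K27ac region at 1324 (83.1%) and held it whole at 1039 (65.2%). H3K27ac was wider than H3K4me2 at 975 (61.2%), so that order was less regular. From the summit, the edge of the region lay a median of 1264 bp away for H3K4me2, 1619 bp for H3K27ac and 2440 bp for H3K4me1. Consensus H3K4me1 merges 3 libraries and the others 2, which can widen its regions.

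**Figure D3:**
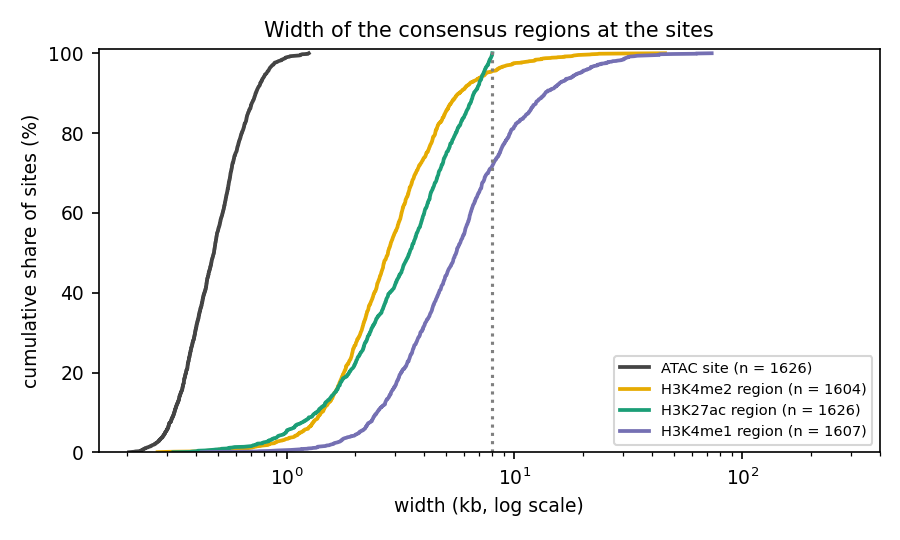
Cumulative share of the compact sites (vertical axis, %) by the width of the ATAC site and of the H3K4me2, H3K27ac and H3K4me1 consensus region that overlaps it (horizontal axis, kb, log scale). The dotted line is the 8 kb limit that the rule sets on H3K27ac. Medians run from 481 bp for the ATAC site to 5550 bp for H3K4me1.

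The accessible site lay near the middle of its H3K27ac region. The summit was within 10% of the region's width from its centre at 635 sites (39.1%) and 10 to 20% away at 496 (30.5%). It was 40 to 50% away, at the region's ends, at 50 sites (3.08%), and outside the region at 63 (3.87%), where another stretch of the site overlapped. Summits of the 2 ATAC libraries were a median of 23 bp apart at the same site, with quartiles of 9 and 53 bp. The 1626 sites lay in 1546 H3K27ac regions, of which 1467 held 1 such site, 78 held 2 and 1 held 3. In 67 of these regions (4.33%) H3K4me3 overlapped the region away from the site.

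The rule bars consensus H3K4me3, and a peak of 1 library could still lie at a site. Replicate 1 had an H3K4me3 peak at 18 of the 1626 sites (1.11%) and replicate 2 at 497 (30.6%), while 1113 sites (68.5%) had no peak of either. Over all accessible sites the shares were 74.8% and 81.7%, and since the rule used this mark nothing is read from these shares or from the peaks' values, which are given as a description. In replicate 2 the 481 peaks at compact sites had a median fold enrichment of 3.09, a median width of 689 bp and a −log10 q under 5 in 90.9% of cases. Without H3K4me3 replicate 1, 1135 sites met the rule, and 1113 did when no peak of either library was allowed. The count also rested on ATAC replicate 1, without which 4073 sites met the rule.

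The rule used H3K4me3 calls and H3K27ac width, so what follows is a description. Set beside the 1113 compact sites with no H3K4me3 peak were 495 with a peak of replicate 2 only. Their median H3K4me2 fold enrichment was 5.60 and 4.94 in replicates 1 and 2, against 4.65 and 4.27 at sites with none. Median ATAC fold enrichment was 5.84 and 8.33, against 5.25 and 7.48. H3K4me1 was closer, at 3.94, 3.12 and 3.38 against 3.76, 3.00 and 3.23 in replicates 1, 2 and 3. In every library of these 3 kinds the median was higher at the sites with the H3K4me3 peak. The H3K27ac regions of those sites were wider as well, with a median of 4160 bp against 3214 bp, and the sites themselves measured 551 bp against 452 bp. No test was made of this split, which rests on 1 H3K4me3 library. The titles give that library a date-like tag that H3K4me2 replicate 1 and H3K27ac replicate 1 also carry. H3K4me2 replicate 2 carries another, which it shares with H3K4me3 replicate 1. The labels do not say what the tag marks, and whether it bears on this split was not tested.

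Among the compact sites, accessibility was tied loosely to the methylation marks. Over quartiles of mean ATAC fold enrichment, from lowest to highest, the median of H3K4me1 was 3.26, 3.36, 3.42 and 3.47 and that of H3K4me2 was 4.62, 4.66, 4.81 and 4.94. Median site width went 400, 448, 495 and 573 bp and the median width of the H3K27ac region 2782, 3268.5, 3492 and 4128 bp over the same quartiles. Spearman's rho over sites was 0.133 between ATAC and H3K4me1 (1593 sites), 0.116 between ATAC and H3K4me2 (1604) and 0.311 between ATAC and H3K27ac (1554). It was 0.626 between H3K4me1 and H3K4me2 (1584) and 0.495 between H3K27ac and H3K4me1 (1526). The sites share their libraries and are not independent, and strong peaks are also wide ones. Replicates of 1 mark had rho of 0.678 for ATAC, 0.920 for H3K27ac, 0.880 for H3K4me2 and 0.800 to 0.885 for H3K4me1 at these sites.

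Sites in wider H3K27ac regions had higher methylation values. From regions under 1 kb (84 sites) through 1 to 2 kb (277), 2 to 4 kb (606) and 4 to 6 kb (397) to 6 to 8 kb (262), median H3K4me1 fold enrichment was 3.05, 3.10, 3.34, 3.56 and 3.69. Median H3K4me2 was 4.08, 4.34, 4.71, 4.94 and 5.22. In each of the 5 libraries of these marks the widest bin was above the narrowest. ATAC changed less regularly, with medians of 6.20, 6.08, 6.53, 6.98 and 7.14. The site itself hardly widened, at 441 to 497.5 bp. From the narrowest to the widest bin the median H3K4me1 region went from 2902 to 8400.5 bp and the H3K4me2 region from 1682 to 4316.5 bp. Each fold enrichment belongs to a whole peak that meets the site, not to the site alone. Single-library H3K4me3 peaks were at 19.05%, 23.8%, 27.1%, 38.0% and 44.3% of the sites.

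Values on both sides of the 8 kb limit were as follows. The 57 sites in H3K27ac regions of 7.5 to 8 kb had a median ATAC fold enrichment of 7.17, H3K4me1 of 3.66 and H3K4me2 of 5.43. The 40 sites in regions of 8 to 8.5 kb, just outside, had 6.35, 3.80 and 5.18. The member nearest the limit, chr5:144415407-144416177, lay in a region of 7992 bp and had ATAC fold enrichments of 6.57 and 6.46. The nearest site outside, chr14:32782820-32783063, lay in one of 8008 bp and had 4.17 and 3.58.

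At the authors' peak threshold, most compact H3K27ac regions without H3K4me3 held no consensus ATAC site of proerythroblasts. Of 8842 such regions 1479 held a consensus ATAC site, or 16.7% (95% interval 16.0 to 17.5, counting error only). The libraries differed widely, since peaks of ATAC replicate 1 met 17.3% of the regions and those of replicate 2 met 37.9%, a mean of 27.6% ± 14.6 (SD, n = 2). Of the 7363 regions without a consensus site, 1926 (26.2%) met a peak of 1 ATAC library. With −log10 q of at least 5 in every list most regions were open instead, at a share of 67.0%. Without H3K27ac replicate 2 the open share was 8.73%. The median width was 3343 bp for open and 1709 bp for closed regions. From the narrowest to the widest bin, the open share was 4.82%, 9.06%, 19.8%, 36.8% and 53.9%.

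Open compact regions carried H3K4 methylation more often than closed ones in every width bin and library. H3K4me1 peaks met 99.3% ± 0.347 of open and 81.8% ± 2.79 of closed regions (SD, n = 3), higher in 3 of 3 libraries by 17.6 points ± 2.45 (exact sign-flip permutation p = 0.25, the smallest possible). H3K4me2 peaks met 99.2% ± 0.143 of open and 64.9% ± 4.05 of closed regions (SD, n = 2), higher in 2 of 2 libraries by 34.2 points ± 3.91 (p = 0.5 in the same exact test, the smallest possible). Among regions of 2 to 4 kb, 559 open and 2259 closed, H3K4me2 met 99.5% and 99.5% of the open regions and 68.9% and 75.3% of the closed ones in replicates 1 and 2. Among those of 6 to 8 kb it met all 213 open regions in both libraries and 83.0% and 88.5% of 182 closed ones. Median H3K4me2 fold enrichment was 4.70 ± 0.329 in open and 3.69 ± 0.171 in closed regions, and that of H3K4me1 was 3.38 ± 0.393 and 3.12 ± 0.237. Open regions also had higher H3K27ac fold enrichment in every width bin and library. Over all widths it was 3.404 and 3.149 in replicates 1 and 2, against 2.833 and 2.682 in closed regions. No comparison was made at matched H3K27ac strength, so whether the methylation difference goes with openness or with that strength was not tested.

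**Figure D4:**
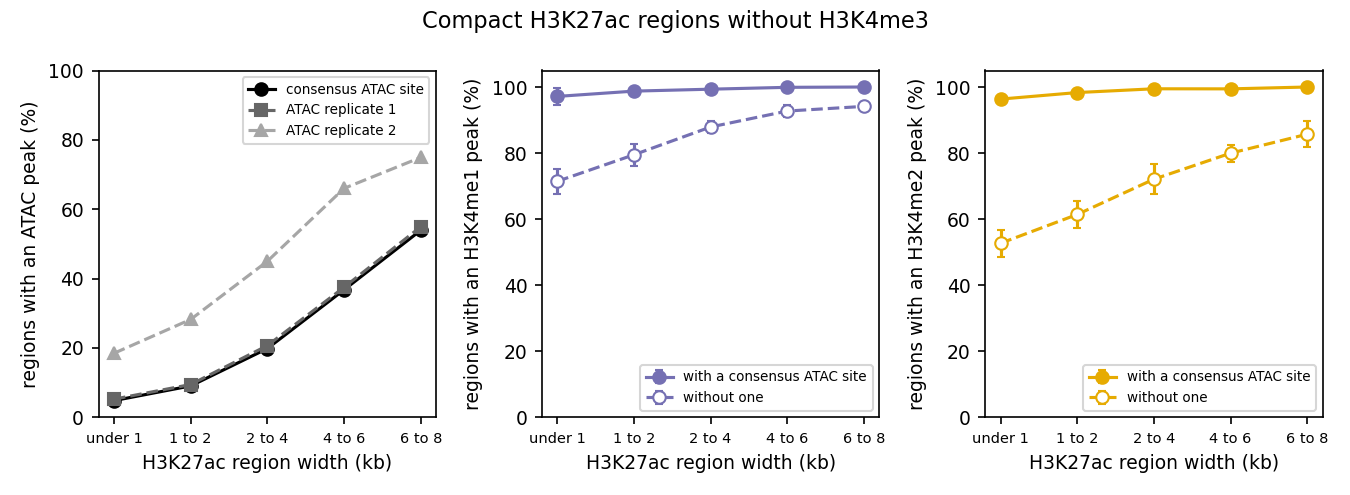
Compact H3K27ac regions without H3K4me3 by region width (horizontal axis, kb). The left panel gives the share that holds a consensus ATAC site (4.82% under 1 kb and 53.9% at 6 to 8 kb) or a peak of each ATAC library, and the other panels the share with an H3K4me1 or H3K4me2 peak among regions with and without a consensus ATAC site, as mean and SD over libraries.

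The compact sites lay at a wide range of distances from H3K4me3. The nearest consensus H3K4me3 region was a median of 22225.5 bp away, with quartiles of 9764.5 and 52747.8 bp. It was within 5 kb of 187 sites (11.5%), within 50 kb of 1198 (73.7%) and within 100 kb of 1410 (86.7%). Sites in broad H3K27ac regions lay closer to H3K4me3, at a median of 12365.5 bp, and sites with H3K4me1 or H3K4me2 but neither H3K27ac nor H3K4me3 at 24901 bp. Another compact site lay within 10 kb of 244 sites (15.0%) and within 50 kb of 547 (33.6%). The shares with a neighbour of their own class within these distances were 38.9% and 73.0% for the 10097 promoter-like sites, 11.8% and 27.2% for the 2209 sites with H3K4me3 but no H3K27ac, and 5.77% and 17.5% for the 1109 with H3K4me1 or H3K4me2 but neither of those marks. For the 610 sites in broad H3K27ac regions they were 38.4% and 49.3%, above the compact sites. These shares also move with the number of sites in a class. By chromosome, compact sites made up from 6.87% of accessible sites on chromosome 9 (61 of 888, 95% interval 5.29 to 8.74) to 12.6% on chromosome 13 (91 of 724, 10.2 to 15.2), and 0 of the 8 on chromosome Y.

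The strongest compact site by ATAC was chrX:73844175-73844560 (386 bp). Its ATAC fold enrichment was 18.1 in replicate 1 and 16.4 in replicate 2, and it ranked 10 among all 16271 accessible sites. Its surroundings were unlike those of most compact sites, since its H3K27ac region spanned 377 bp and its H3K4me1 region 459 bp. It had no H3K4me2 peak in either library, and an H3K4me3 peak of replicate 1 alone with a fold enrichment of 4.02.

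The next sites in that order were chr18:62444647-62445641, with ATAC fold enrichments of 14.9 and 14.3 in replicates 1 and 2, and chr9:75375245-75375776, with 11.1 and 16.0. Both had weak methylation for this class, at a mean H3K4me1 fold enrichment of 2.60 ± 0.152 and 2.89 ± 0.282 (SD, n = 3). The fourth, chr14:63729072-63729627, combined high accessibility with strong acetylation. It had ATAC fold enrichments of 12.6 and 13.9, and its H3K27ac region of 7066 bp had 7.89 and 7.37. Its H3K4me1 values were 4.84, 3.72 and 3.90 and its H3K4me2 values 3.98 and 4.63, and no H3K4me3 peak of either library met it. The nearest H3K4me3 region was 11024 bp away.

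Further down, chr16:91717107-91717990 had ATAC fold enrichments of 14.8 and 11.7 in replicates 1 and 2, and chr19:34730811-34731482 had 13.4 and 12.9. The site chr1:70948796-70949413 had 12.0 and 14.0, with H3K27ac at 6.74 and 6.53 and H3K4me2 at 7.22 and 5.92. The last 3 of the 10 were chrX:148741809-148742309, chr8:63338328-63338863 and chr13:76003051-76003679, with mean ATAC fold enrichments of 13.0 ± 3.59, 13.0 ± 0.556 and 12.9 ± 0.757 (SD, n = 2). Of the 10, 6 had no H3K4me3 peak of either library, and 9 had H3K4me2 peaks in both. Their H3K27ac regions ran from 377 to 7732 bp.

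**Figure D5:**
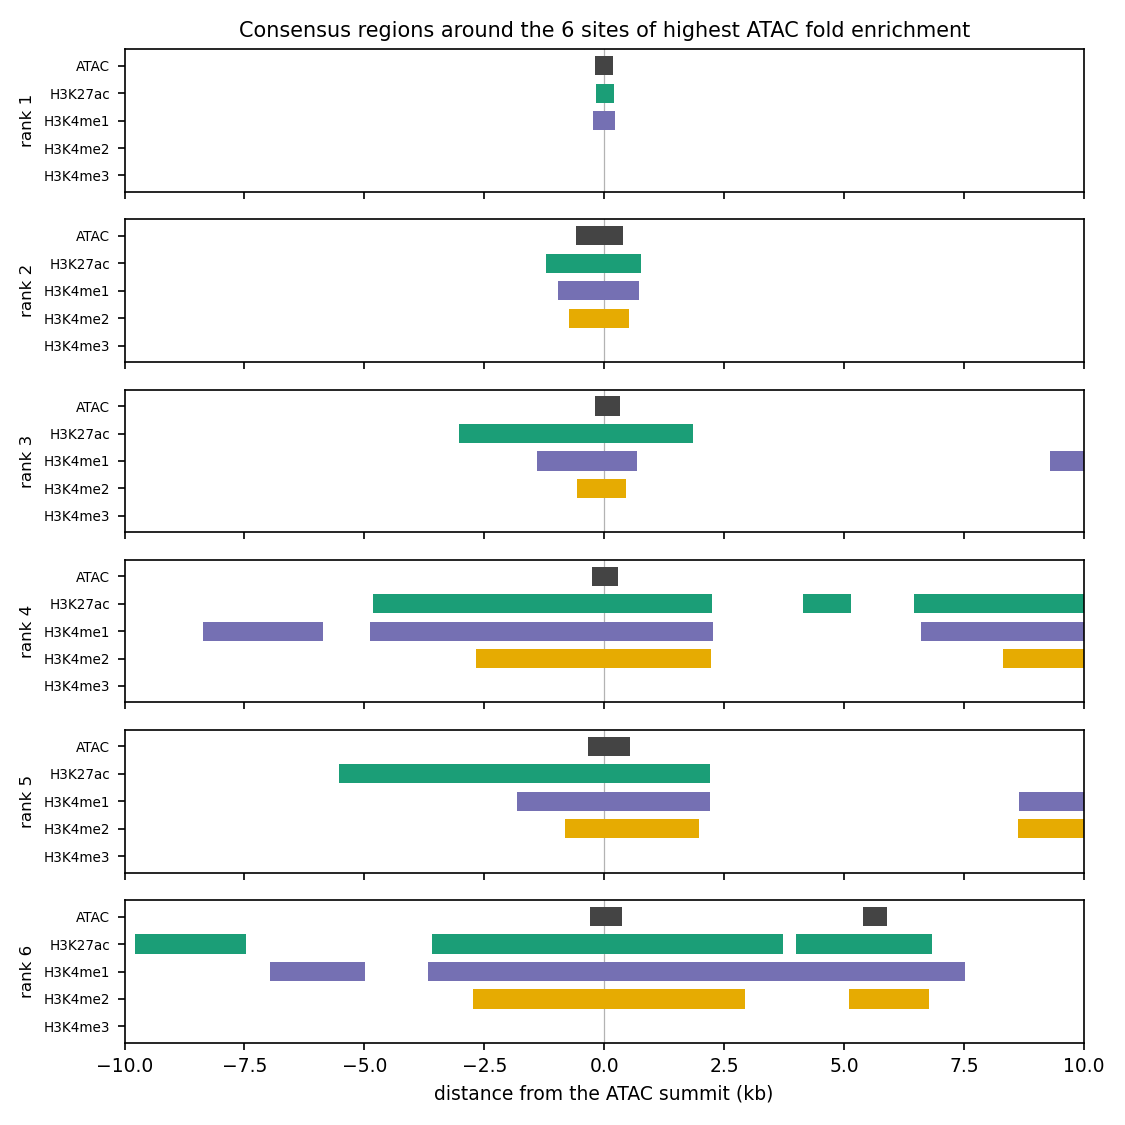
Consensus regions of ATAC and of each mark within 10 kb of the ATAC summit (horizontal axis, kb) at the 6 compact sites of highest mean ATAC fold enrichment, in order from the top. The first has H3K27ac and H3K4me1 over under 0.5 kb and no H3K4me2, the fourth has an H3K27ac region of 7066 bp, and the nearest consensus H3K4me3 region to any of the 6 is 9748 bp from the fifth.

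The sites of strongest methylation were not the most accessible ones. The highest mean H3K4me1 fold enrichment, 5.87 ± 0.355 (SD, n = 3), was at chr16:58604684-58605192, with 6.21, 5.50 and 5.90 in replicates 1, 2 and 3. Its ATAC fold enrichments of 6.32 and 8.53 placed it 8148 among all accessible sites. Next came chr8:70093011-70093478, with H3K4me1 at 6.53, 4.73 and 5.85 and an ATAC rank of 12276. The third to the fifth were the 3 sites of a single H3K27ac region, chr6:70675375-70682378 (7004 bp), the only region with 3 compact sites. That region had H3K27ac fold enrichments of 7.42 and 6.44 and its 3 sites shared the same H3K4me1 values, 6.29, 4.74 and 5.40 in replicates 1, 2 and 3. Its sites began at 70677362, 70679182 and 70680870, a mean of 1764 bp apart between midpoints. Their ATAC fold enrichments were 4.74 and 5.44, 5.83 and 8.46, and 4.76 and 4.78 in replicates 1 and 2.

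For H3K4me2 the highest mean fold enrichment was 8.56 ± 1.22 (SD, n = 2), at chr7:126395125-126395568, followed by 8.38 ± 1.31 at chr18:70195856-70196287. The other 3 of the first 5 were chr10:99987274-99987925, chr4:93223114-93223427 and chr5:151443737-151444367, at 8.33 ± 1.22, 8.29 ± 1.12 and 8.17 ± 0.569. An H3K4me3 peak of replicate 2 met 3 of these 5, with fold enrichments of 3.57, 3.89 and 4.13. The H3K27ac regions of highest fold enrichment were those of chr6:112634050-112634456, with 8.71 and 7.65, and of chr9:123864832-123865591, with 8.05 and 7.46. The third was that of chr14:63729072-63729627 above, and the next 2 sites shared the region chr7:123092158-123099297, with 7.78 and 7.10.

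Regions that held 2 compact sites were named in order of H3K27ac fold enrichment among the 78. The first of them, chr7:123092158-123099297, held sites with midpoints 594 bp apart and ATAC fold enrichments of 5.84 and 9.25 for one and 4.98 and 4.94 for the other. In chr17:29064115-29069912 the sites were 1382 bp apart, in chr4:134841334-134846460 they were 1004 bp apart, and in chr7:82971686-82977984 they were 2518.5 bp apart. The last held the most accessible of these sites, chr7:82975071-82975906, with 12.1 and 12.2, beside one with 5.53 and 5.93.

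Few compact sites lacked H3K4 methylation. Consensus H3K4me1 without H3K4me2 was found at 13 sites, H3K4me2 without H3K4me1 at 10 and neither at 9. The 9 sites with neither had a median mean ATAC fold enrichment of 5.66 and a median H3K27ac region of 1551 bp, against 6.63 and 3467.5 bp for all compact sites. Peaks of some but not all libraries of a mark met 5 of the 9. The 4 without any H3K4me1 or H3K4me2 peak were chr2:39228459-39228999, with ATAC fold enrichments of 11.3 and 13.5, chr11:31057052-31057554, with 4.96 and 6.36, chrX:20348173-20348447, with 4.67 and 5.69, and chrX:156044864-156045263, with 4.95 and 6.91.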

How the data were processed

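Of 12 samples, 11 had a peak list (1 per library, as the authors deposited them), and 1 input library was not used. Trimmomatic 0.32, Bowtie 1.0.1, SAMtools, MACS2 and the build mm9 are named, per the submitters' processing notes. How peaks were called (version, settings, control, any shift of ATAC cut sites) is not given in those notes. The protocol text of the ATAC samples describes ChIP, and the labels name 2 suppliers of the H3K4me2 antibody. The deposited lists hold a fold enrichment for each peak, which is a ratio, together with −log10 values of p and q. The score that the authors deposited beside them was not used. Peaks were called per library, and fold enrichment depends on each library's depth and background.

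Autosomal, X and Y peaks were read from these lists, and 7 mitochondrial ones were left out. A consensus region is a merged stretch of overlapping or touching peaks that holds a peak of every library of its kind. Overlap means 1 bp shared. A site's value in a library is its highest fold enrichment among overlapping peaks. A site without such a peak has no value there and does not enter the median. Positions count from 1. The gene table at hand is on GRCm38, so gene names, the planned gene lists, motifs and sequences were not used here. Class differences were taken within each library and tested by an exact two-sided sign-flip permutation test over libraries, which cannot reach 0.05 with 2 or 3 libraries. Named sites are the 10 highest by ATAC, the 5 highest by each of H3K4me1, H3K4me2 and H3K27ac, those at the width limit, and the 5 H3K27ac regions with most sites, ties ordered by H3K27ac. Sites without H3K4 methylation were named after their values were seen. Members, lists and rules were chosen with earlier results of these data known. Alternatives covered overlap, −log10 q, the width limit, H3K4me3, peak numbers and leaving out each library. Overlap functions were tested on simulated peaks. Python 3.11.15, numpy 2.4.6, pandas 2.3.3 and scipy 1.17.1 were used.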

Additional observations from a re-analysis of the deposited data

How the results depend on the processing

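Every test was paired within its libraries, since it took the difference between 2 classes of site in the same library. No paired analysis was possible because no test sets libraries of a mark against those of another, paired here meaning matched by replicate number. Some libraries of different marks share a date-like tag in their titles, not always under the same replicate number, and the labels do not say what it marks. The directions of the H3K4me1 and H3K4me2 share differences were kept in all 19 alternatives for each of the 4, though leaving out a library of the other methylation mark cannot move them. Reading the summit and sites of 400 to 600 bp were added after the data were seen. As a mean over single libraries, the H3K4me1 difference from promoter-like sites ran from 9.62 to 37.3 points. That of H3K4me2, −1.19 points, was −3.56 points without ATAC replicate 1. The count of compact sites cannot change when an H3K4me1 or H3K4me2 library is left out, since the rule does not use them. It was 1080 with −log10 q of at least 5, and leaving out each library gave 1135 to 4073, the last without ATAC replicate 1. The share with consensus H3K4me1 was 68.6% at −log10 q of at least 5 and 97.9% to 99.3% without each library. That with H3K4me2 was 98.0% at −log10 q of at least 5, 98.1% with no H3K4me3 peak of either library allowed, 98.9% with equal numbers of peaks per library and 96.0% to 98.9% without each library. The ATAC difference from promoter-like sites was 0.20 among sites of 400 to 600 bp. That from broad-region sites, 0.0408, turned to −0.18 with a width limit of 6 kb, −0.33 among sites of 400 to 600 bp and −0.28 to 0.48 without each library, −0.28 without ATAC replicate 2, −0.13 without H3K27ac replicate 1 and −0.0098 without H3K27ac replicate 2. The open share of compact regions was 67.0% at −log10 q of at least 5 and 8.73% to 37.9% without each library. Median site width was 309 to 481 bp without each library. The cause of these moves was not tested. The median distance to H3K4me3 ran from 16007 to 28201 bp. The lists hold no counts, so how depth limits the calls is unknown.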
